A study of Mus musculus with 5 samples.

Results

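Long intergenic noncoding RNA (lincRNA) genes that were expressed in CD4 single positive (CD4 SP) thymocytes are described here: 130 autosomal genes, chosen by their measured counts. The genes were taken from the 5854 genes of biotype lincRNA in the GENCODE M21 annotation of the mouse genome (GRCm38, also called mm10), of which 5614 were counted, 4976 on autosomes. A gene was kept when its counts summed to at least 200 over the 5 libraries. 3 genes on the X chromosome reached that minimum and were left out, and none of the imprinted genes *H19*, *Meg3*, *Rian*, *Mirg* and *Peg13* reached it under this biotype.

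RNA was measured in thymocytes sorted from 3 wild type (WT) and 2 Tet2-/- Tet3flx/flx CD4cre (*Tet2/3* DKO) C57BL/6J mice at an age between 21 and 30 days, and each mouse gave 1 library. The cells were live, low for CD24 (HSA), positive for CD4 and TCRb and negative for CD8 and for the aGalCer-loaded CD1d tetramer that marks invariant natural killer T cells. TET2 and TET3 are enzymes that oxidise 5-methylcytosine in DNA. *Tet2* was deleted in the germline of the DKO mice, so that every cell lacked it, whereas *Tet3* was removed by a Cre recombinase driven by CD4 regulatory elements, which acts from the double-positive stage of the thymus and also in cells that later leave the CD4 lineage.

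LincRNA genes are transcribed by RNA polymerase II from their own promoters outside coding genes, and their transcripts are often spliced and polyadenylated but carry no long open reading frame. Some act in the nucleus as scaffolds of nuclear bodies or on chromatin close to their own locus, some host small RNAs that are cut from their introns or exons, and the function of most is unknown. Their levels differ between cell types more than those of coding genes do, and in T cells lincRNA genes near cytokine and receptor genes are switched on with the effector program.

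Reads counted on genes came to between 23529075 and 27267031 in the WT libraries and to 21371743 and 17607089 in DKO replicates 1 and 2. *Tet3* had 1133, 1082 and 1440 counts in the WT libraries against 419 and 235 in the DKO libraries, a log2 fold change of -1.50 (SE 0.18, edgeR adjusted p = 0.00121). Counts over the whole *Tet2* gene did not test its genotype, with 1355, 1286 and 1585 in WT and 1919 and 1048 in DKO libraries. The library labelled DKO replicate 1, from a mouse labelled male, had 744 counts of *Xist*, the RNA of the inactive X chromosome of females. The other libraries had 0 to 2, with 0 in WT replicate 1, labelled female. The study describes the mice of both genotypes as male. In that DKO library 5.70% of reads fell on no annotated feature, against 3.51% to 3.72% elsewhere. The calls over the 130 genes were therefore also made without DKO replicate 1. Of marker genes of other cells, those of NK cells summed to 1.57 to 2.44 CPM (counts relative to the TMM-scaled total of each library) in WT and to 8.53 and 20.1 in DKO libraries, and those of myeloid cells to 7.18 to 13.5 against 21.9 and 48.4. B cell markers summed to 5.61 to 6.96 CPM in WT and 9.11 and 8.62 in DKO libraries. Of the markers of double-positive thymocytes other than *Cd8a*, *Rag1* was at 0 throughout, *Rag2* and *Ptcra* were at or near 0, and *Dntt* was at 17.2 to 23.6 CPM in WT and at 13.6 and 14.2 in DKO libraries, a log2 fold change of -0.53 (edgeR adjusted p = 0.106). The CD8 genes differed from each other: *Cd8b1* had a log2 fold change of -1.29 (edgeR adjusted p = 0.000168), while *Cd8a* stood at 2.71 to 5.39 CPM in WT and at 5.77 and 8.67 in DKO libraries (edgeR adjusted p = 0.128). Of the markers of thymic epithelium, *Epcam* was at 8.24 to 10.8 CPM in WT and at 10.4 and 33.8 in the DKO libraries, *Krt8* at 0.774 to 1.94 and at 0.191 and 0.224, and *Krt5* and *Foxn1* at 0 in both DKO libraries. In such bulk samples, fewer cells of a type and less RNA per cell cannot be told apart.

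The annotated label was only partly borne out by other annotation. RefSeq listed 79 of the 130 genes as lncRNA, 9 as protein coding and 2 as pseudogenes, and for 40 no RefSeq gene was matched by identifier or current symbol. Of the 130, 102 shared no exon base with another gene, 15 lay at least partly within the body of a coding gene, and 26 started within 5000 bases of a coding gene on the other strand. Median exon length was 1837.5 bases (range 269 to 20771), and 19 genes had no intron. The counts were taken without regard to strand, since each strand held close to the same share of the reads (49.8% to 50.2% on the one), so that a lincRNA gene and a gene overlapping it on the other strand could not be separated by strand, and reads over both were left out of the counts.

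The sequences around the start sites of 3 genes that carry the results below are shown, because a promoter's CG dinucleotides are the sites that TET enzymes and DNA methylation act on. They are *AW112010* and *Ifngas1*, which were higher in DKO cells, and *D930028M14Rik*, which was lower. Each holds 250 bases before and 50 after the RefSeq start (build GRCm38.p6), is written 5′ to 3′ on the gene's own strand, and has its CG dinucleotides in capitals.
Ifngas1 (chr10:118556476-118556775, minus strand): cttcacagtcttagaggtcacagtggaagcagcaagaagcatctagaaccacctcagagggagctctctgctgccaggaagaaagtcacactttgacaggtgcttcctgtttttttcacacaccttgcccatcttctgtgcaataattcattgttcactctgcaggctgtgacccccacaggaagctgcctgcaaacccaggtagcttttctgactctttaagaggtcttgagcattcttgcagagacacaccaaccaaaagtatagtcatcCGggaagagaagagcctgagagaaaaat
AW112010 (chr19:11050517-11050816, minus strand): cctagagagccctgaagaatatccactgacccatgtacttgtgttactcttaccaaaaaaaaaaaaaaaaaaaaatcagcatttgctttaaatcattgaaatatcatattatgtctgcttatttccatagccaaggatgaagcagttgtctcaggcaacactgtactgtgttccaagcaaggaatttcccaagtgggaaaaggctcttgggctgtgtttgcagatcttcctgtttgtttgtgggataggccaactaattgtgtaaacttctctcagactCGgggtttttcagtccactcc
D930028M14Rik (chr7:25154819-25155118, plus strand): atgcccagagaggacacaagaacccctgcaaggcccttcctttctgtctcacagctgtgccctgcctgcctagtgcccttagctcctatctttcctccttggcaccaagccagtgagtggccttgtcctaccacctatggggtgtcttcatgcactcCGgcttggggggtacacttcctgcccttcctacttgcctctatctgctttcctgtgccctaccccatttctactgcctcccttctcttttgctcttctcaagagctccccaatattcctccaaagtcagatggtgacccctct

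Each of these 3 windows held 1 CG dinucleotide, whereas the median over the 32851 promoters of the RefSeq table was 7, and 5.43% of them held fewer than 1. A promoter was found for 69 of the 130 genes and for 6 of the 12 genes past the threshold described below. The other 3 of these 6 varied, with 16 CG dinucleotides at *Gm42031*, 5 at *Gm14230*, and 1 and 3 at the 2 starts of *Gm33104*. The median over the lincRNA genes with a promoter, at the first start listed, was 8. The starts of *Ifngas1*, *AW112010*, *Gm33104* and *D930028M14Rik* coincided with a GENCODE transcript start of the gene, while those of *Gm42031* and *Gm14230* lay 475 and 1711 bases from one, and whether these windows are the promoters used in thymocytes was not tested. The windows of the 6 genes were also searched on both strands for the RUNX motif TGTGGT, the T-box motif GGTGTGA, the GATA motif AGATAA, the ETS motif GGAAGT and the AP-1 motif TGACTCA, letters that 16.76%, 3.979%, 11.18%, 23.77% and 5.202% of all promoters held. The GATA motif occurred at *Gm42031*, the ETS motif at *Gm14230* and at *D930028M14Rik*, and the RUNX, GATA and AP-1 motifs at the downstream start of *Gm33104*. None of these letters occurred in the windows of *Ifngas1* and *AW112010*.

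Expression of the 130 genes was concentrated in few of them. Their totals ran from 201 to 44915 counts, a 223-fold range, and the 3 genes of highest total, *Malat1*, *AW112010* and *Gm2682*, held 38.3% of the 287963 counts of all 130, and the 10 highest held 60.9%. Just inside the minimum were *Gm39556*, *Gm13166* and *4930412M03Rik* with totals of 201, 203 and 205, and just outside were *Gm32391*, *Gm4316* and *Gm33682* with 191 each. The minimum could be reached through either genotype: 102 genes reached it in proportion in both (120 counts in WT, 80 in DKO libraries), 19 only in WT and 9 only in DKO libraries. All 130 also passed the filter on low counts of the test.

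To compare genes, levels were divided by the length of the merged exons and are given as CPM per kilobase. The most abundant lincRNA gene of WT cells on this scale was *AW112010*, an interferon-responsive gene of immune cells whose transcript is known to be translated in macrophages although it is annotated as noncoding, with 243, 225 and 229 CPM per kilobase in the WT libraries and 841 and 908 in the DKO libraries. *Gm10076*, which RefSeq lists as a pseudogene, followed with 197, 198 and 215 in WT and 175 and 205 in DKO cells, and reads that it shares with a parent gene were left out of its counts. *AW112010* stood above *Gm10076* in each WT library, and the WT libraries of *Gm10076*, *Gm11707* and *Mir142hg* did not overlap with one another. *Gm11707*, of unknown function, had 136, 128 and 132 CPM per kilobase in WT cells against 89.3 and 61.7 in DKO cells. *Mir142hg*, the host of the blood cell microRNA miR-142, had 79.7, 91.3 and 95.2 in WT cells and 87.5 and 68.2 in DKO cells. *Gm2682* had 85.0, 80.8 and 73.5 in WT cells, which overlapped with *Mir142hg*, and 167 and 105 in DKO cells.

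*Malat1*, the abundant RNA of nuclear speckles and the highest in total, came after these per kilobase of its 6983 exon bases, at 48.3, 49.8 and 48.9 CPM per kilobase in WT cells. Its DKO libraries were far apart, at 87.4 and 46.3. *2610035D17Rik*, *Gm28875*, *A630023P12Rik* and *1810058I24Rik* followed, with WT means of 43.4, 40.7, 40.1 and 36.6, and the WT ranges of neighbours in this order overlapped. *1810058I24Rik* is listed as protein coding by RefSeq. Without division by length, 8 of these 10 genes were among the 10 highest.

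**Figure D1:**
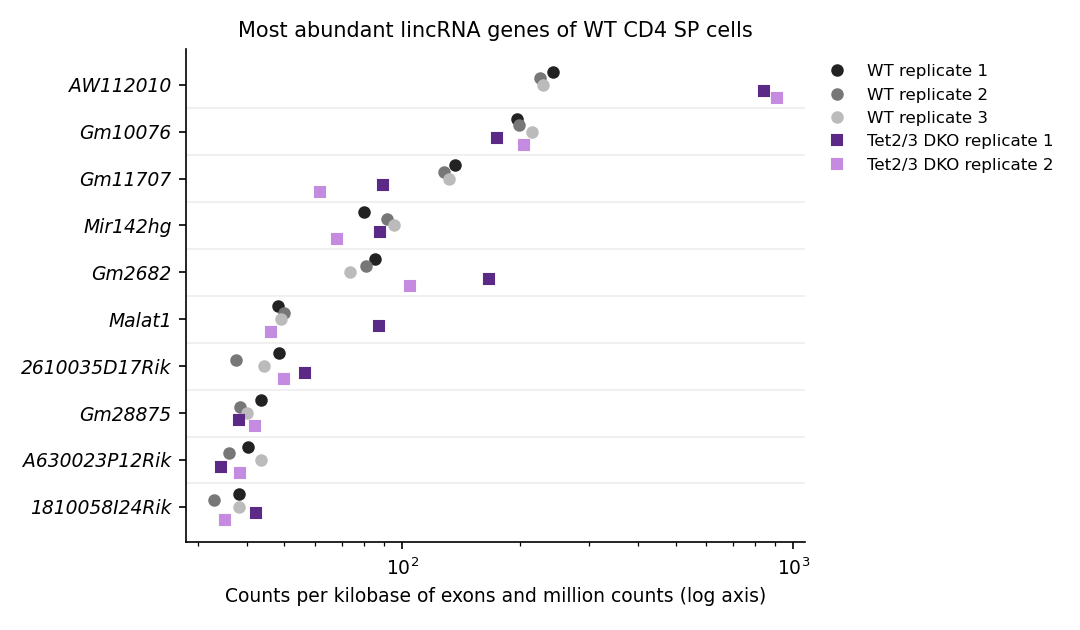
Level of the 10 most abundant lincRNA genes of WT cells in each of the 5 libraries, in CPM per kilobase of merged exons (log axis), circles for WT and squares for *Tet2/3* DKO libraries. *AW112010* rose from between 225 and 243 in WT to 841 and 908 in DKO cells, while *Malat1* was at 87.4 in DKO replicate 1 and at 46.3 in DKO replicate 2.

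The share of all gene counts that fell on the 130 genes was 0.220%, 0.214% and 0.221% in the WT libraries and 0.319% and 0.289% in the DKO libraries, which did not overlap. Leaving out *AW112010* gave 0.201%, 0.196% and 0.203% against 0.253% and 0.215%. Leaving out *Malat1* as well gave 0.168%, 0.161% and 0.169% against 0.193% and 0.182%. Much of the gap between the genotypes thus lay in *AW112010*, and part of the gap between the DKO libraries lay in *Malat1*.

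The comparison of *Tet2/3* DKO with WT cells asks which lincRNA genes change when both enzymes are lost. At an adjusted p of 0.01, 12 of the 130 genes differed (9.23%), against 3.92% of all 13525 genes tested. Of these, 8 were higher in DKO cells, where 2.42% of all tested genes were, and 4 were lower, where 1.5% were. Coding genes that met the same minimum of 200 counts passed in 410 of 9925 cases (4.13%). Because lincRNA genes are low, those with totals up to 1000 were set beside coding genes in the same range: 6 of 89 lincRNA genes (6.74%) and 101 of 1924 coding genes (5.25%) passed. Of these lincRNA genes that passed, *AC158975.2*, *Gm33104*, *Gm47015*, *AC140469.1* and *Gm14230* met the minimum in proportion in only a single genotype. Whether lincRNA genes passed more often than coding genes was not tested. Autosomal lincRNA genes under the minimum passed in 2 of 189 tested cases, both higher.

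At an adjusted p of 0.05, 22 of the 130 passed, against 8.68% of all genes. In 67 of the 130 (51.5%) the libraries of the genotypes did not overlap, 35 higher and 32 lower in DKO cells, against 39.1% of all genes. The median log2 fold change of the 130 was 0.06 (quartiles -0.26 and 0.46), beside 0.01 over all genes tested. 3 of the 8 higher genes (*Ifngas1*, *AC158975.2* and *Gm33104*) met the count minimum in proportion only in DKO libraries. 3 of the 4 lower genes (*Gm47015*, *AC140469.1* and *Gm14230*) met it only in WT libraries. For these 6 genes the minimum thus used values that the comparison uses. Without DKO replicate 1 the log2 fold changes of all 12 kept their sign, with the remaining DKO library assumed to vary as the WT libraries did. Without WT replicate 1, 2 or 3, 7, 5 and 6 of the 12 remained past the threshold, where 1.14%, 0.822% and 0.956% of all genes passed. With the replicate number as a block 7 remained, where 2.65% of all genes passed.

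**Figure D2:**
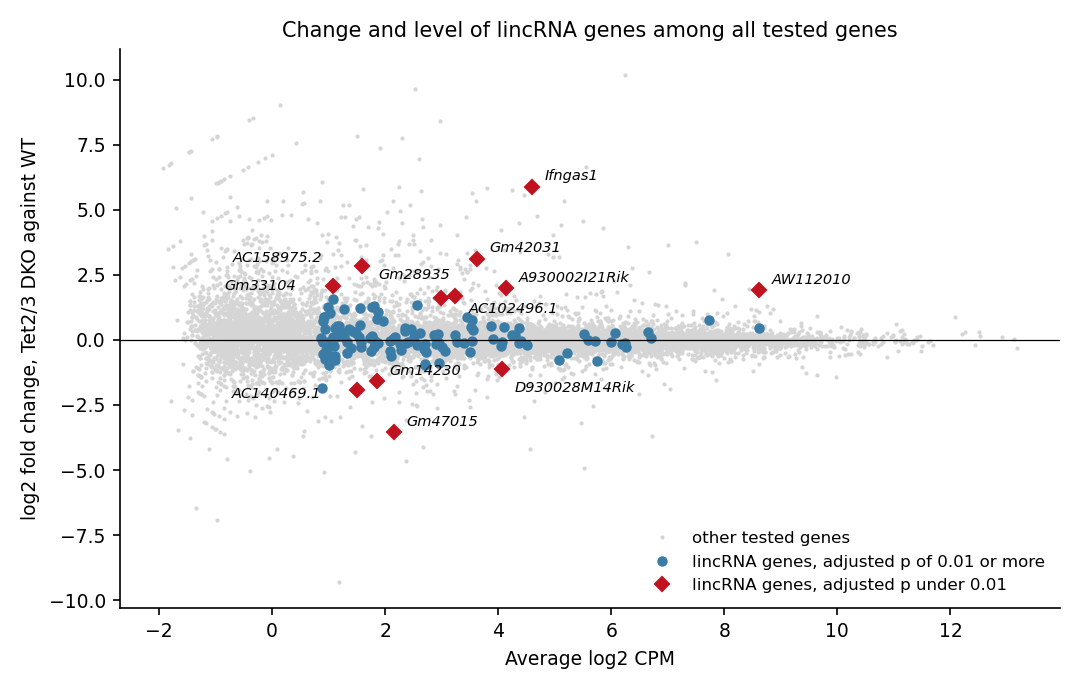
Log2 fold change of *Tet2/3* DKO against WT cells (vertical) by average log2 CPM (horizontal), with the 13525 tested genes in grey, the lincRNA genes in blue and the 12 lincRNA genes with an adjusted p under 0.01 as red diamonds. The 8 higher genes range from a log2 fold change of 1.60 to 5.88 and the 4 lower ones from -1.10 to -3.55.

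*Ifngas1* (also known as NeST or Tmevpg1), a lincRNA gene beside the interferon gamma gene *Ifng* whose RNA is known to promote *Ifng* transcription in T helper 1 cells, showed the largest increase of the 12. It lies on chromosome 10 from 118502035 to 118556525 on the minus strand. It met the count minimum in proportion only in DKO libraries. It had 30, 12 and 35 counts in the WT libraries and 1115 and 1173 in the DKO libraries. These were 0.980 ± 0.415 CPM (SD, n = 3) in WT and 59.4 ± 8.82 CPM (SD, n = 2) in DKO cells, a log2 fold change of 5.88 (SE 0.23, edgeR adjusted p = 2.92e-06), so that a transcript near the limit of detection in WT cells became abundant in both DKO libraries. *Ifng* itself, on the opposite strand 56143 bases away, had 18, 6 and 27 counts in the WT libraries against 11 and 55 in the DKO libraries. Its log2 fold change was 1.36 (SE 0.72, edgeR adjusted p = 0.307), and it turned to -0.35 without DKO replicate 2 and rose to 2.21 (edgeR adjusted p = 0.00471) without DKO replicate 1. *Ifngas1* was thus at a similar level in the 2 DKO libraries while *Ifng* was not. *Ifngas1* is also transcribed in NK cells, whose markers were higher in the DKO libraries, and the part of such cells in its level was not tested. The cells were sorted as positive for CD4 and TCRb. In them the NK cell markers summed to 1.57 to 2.44 CPM in WT and to 8.53 and 20.1 in DKO libraries.

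*AW112010*, on chromosome 19 from 11047612 to 11055808, was the most abundant of the genes that changed, with 5046, 4295 and 5048 counts in the WT libraries against 14180 and 13054 in the DKO libraries. Its level was 187 ± 7.50 CPM (SD, n = 3) in WT and 703 ± 38.4 CPM (SD, n = 2) in DKO cells, a log2 fold change of 1.91 (SE 0.08, edgeR adjusted p = 3.47e-06). It lies within the Ms4a family, between *Ms4a18* and *Ms4a8a*, genes of membrane proteins that cross the membrane several times. Its nearest coding gene, *Ms4a8a* at 11663 bases, was too low to be tested, with 1, 0 and 0 counts in the WT libraries against 8 and 6 in the DKO libraries. The only coding gene tested within 100 kb, *Ccdc86*, had a log2 fold change of 0.03 (edgeR adjusted p = 0.904).

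*Gm28935*, further along the Ms4a family on chromosome 19 from 11362278 to 11363890, was higher as well. It had 149, 84 and 105 counts in the WT libraries against 277 and 240 in the DKO libraries, a log2 fold change of 1.60 (SE 0.23, edgeR adjusted p = 0.00269). All 4 coding genes tested within 100 kb had positive log2 fold changes. *Ms4a4c*, with 1801, 1264 and 1467 counts in the WT libraries against 13397 and 9450 in the DKO libraries, reached 3.31 (edgeR adjusted p = 3.29e-06), and *Ms4a4b*, a gene expressed by T cells, had a log2 fold change of 0.89 (edgeR adjusted p = 0.00152). The nearest, *Ms4a4a* at 11633 bases, had 1.14 (edgeR adjusted p = 0.0567) and *Ms4a7* had 0.88 (edgeR adjusted p = 0.303). *Gm28935* missed the threshold without WT replicate 2 (edgeR adjusted p = 0.0296) and without WT replicate 3 (edgeR adjusted p = 0.0288).

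*A930002I21Rik* lies on chromosome 3 from 107090880 to 107098401 among genes of voltage-gated potassium channels. It had 226, 164 and 230 counts in the WT libraries against 696 and 553 in the DKO libraries, 8.01 ± 0.970 CPM (SD, n = 3) and 32.1 ± 1.58 CPM (SD, n = 2), and its log2 fold change was 1.997 (SE 0.15, edgeR adjusted p = 9.06e-05). *Kcna2*, 2745 bases away on the same strand, was low, with 12 counts in every WT library against 29 and 23 in the DKO libraries, a log2 fold change of 1.51 (edgeR adjusted p = 0.0495). *Kcna3*, which encodes Kv1.3, the main potassium channel of resting T cells, lies 52810 bases away and rose from 701, 613 and 620 to 1042 and 1093 counts, a log2 fold change of 1.14 (edgeR adjusted p = 0.00115). *AI504432*, another of the 130 genes, lies between them, 1434 bases from *Kcna3*, with 28, 49 and 43 counts in the WT libraries against 75 and 65 in the DKO libraries and a log2 fold change of 1.21 (edgeR adjusted p = 0.0523). The libraries of the genotypes did not overlap for any of these 4 genes, which held for 39.1% of all genes. They did overlap for *Gm27008*, an antisense gene whose body overlaps both lincRNA genes. It had 72, 59 and 60 counts in the WT libraries against 57 and 43 in the DKO libraries. Its log2 fold change was 0.05 (edgeR adjusted p = 0.946). The locus is on the chromosome of *Tet2*, 26.4 Mb from it, and of the 9 genes of the 130 on that chromosome it alone passed the threshold, where 3.92% of all genes did. Of the 8 genes on chromosome 6, which carries *Tet3*, 0 passed in edgeR, 1 passed in DESeq2 and 2 had an unadjusted edgeR p under 0.05. Whether either chromosome differed from the rest was not tested.

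*Gm42031*, of unknown function, lies on chromosome 8 from 85125872 to 85132289. It had 85, 59 and 91 counts in the WT libraries against 522 and 509 in the DKO libraries, 3.03 ± 0.471 CPM (SD, n = 3) against 26.7 ± 2.54 CPM (SD, n = 2), and a log2 fold change of 3.13 (SE 0.18, edgeR adjusted p = 2.57e-05). Its nearest coding gene *Zfp791*, a zinc finger gene 2777 bases away, had 0 counts in every library but DKO replicate 2, which had 2. Of the 7 coding genes tested within 100 kb, 0 passed in edgeR or in DESeq2 and 1 had an unadjusted edgeR p under 0.05, with log2 fold changes from -0.51 (*Fbxw9*) to 0.09 (*Man2b1*).

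*Gm33104*, on chromosome 10 from 19486715 to 19507311, gave 19, 17 and 35 counts in the WT libraries against 93 and 60 in the DKO libraries, a log2 fold change of 2.09 (SE 0.35, edgeR adjusted p = 0.00657). Its nearest coding gene, *Ifngr1*, encodes the ligand-binding chain of the interferon gamma receptor and lies 84638 bases away on the same strand. *Ifngr1* had 7551, 6041 and 7442 counts in the WT libraries against 10702 and 9115 in the DKO libraries, a log2 fold change of 0.90 (SE 0.09, edgeR adjusted p = 0.000364). This was the only one of the 12 genes whose nearest coding gene also passed in the same direction. *Gm33104* itself missed the threshold without any one of the WT libraries, with edgeR adjusted p values between 0.0211 and 0.0531. It met the count minimum in proportion only in DKO libraries.

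*AC158975.2*, on chromosome 18 from 82694287 to 82701336, gave 22, 23 and 23 counts in the WT libraries against 114 and 131 in the DKO libraries, a log2 fold change of 2.83 (SE 0.30, edgeR adjusted p = 0.000741). It starts divergently from *Zfp236*, a zinc finger gene 1404 bases away, whose log2 fold change was 0.45 (edgeR adjusted p = 0.165) and was 0.70 (edgeR adjusted p = 0.00335) without DKO replicate 2 and 0.11 (edgeR adjusted p = 0.764) without DKO replicate 1. Its call was lost without WT replicate 2 (edgeR adjusted p = 0.0135) or WT replicate 3 (edgeR adjusted p = 0.0125). *AC102496.1*, on the same chromosome from 30267249 to 30272133, gave 107, 108 and 173 counts in the WT libraries against 333 and 289 in the DKO libraries, a log2 fold change of 1.67 (SE 0.21, edgeR adjusted p = 0.00145). It lies 614 bases from *Pik3c3*, the lipid kinase Vps34 of autophagy, on the same strand. *Pik3c3* had a log2 fold change of 0.00 (SE 0.10, edgeR adjusted p = 0.998). The call of *AC102496.1* was lost without WT replicate 1 (edgeR adjusted p = 0.0142) or WT replicate 2 (edgeR adjusted p = 0.0203).

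The 4 genes that were lower in DKO cells were all of low or moderate level. *Gm47015*, on chromosome 10 from 79412962 to 79417905, gave 173, 172 and 169 counts in the WT libraries against 11 in each DKO library. Its level went from 6.70 ± 0.544 CPM (SD, n = 3) to 0.570 ± 0.0644 CPM (SD, n = 2), a log2 fold change of -3.55 (SE 0.35, edgeR adjusted p = 0.000471). It was the largest decrease among the 130 genes. *Gm47015* met the count minimum in proportion only in WT libraries. Its nearest coding gene, the vomeronasal receptor gene *Vmn2r82*, had 0 counts in all 5 libraries.

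*D930028M14Rik*, on chromosome 7 from 25152457 to 25156627, overlaps *Pou2f2* on the other strand, the gene of the octamer-binding factor Oct-2 of lymphocytes. It had 578, 483 and 572 counts in the WT libraries against 238 and 147 in the DKO libraries, a log2 fold change of -1.10 (SE 0.17, edgeR adjusted p = 0.00473). *Pou2f2* had a log2 fold change of 0.37 (edgeR adjusted p = 0.357) and 0 of the 7 coding genes tested within 100 kb, *Pou2f2* included, passed in edgeR or DESeq2, with 1 at an unadjusted edgeR p under 0.05. *AC140469.1*, within *Atrnl1* on chromosome 19 from 58091814 to 58096031, gave 92, 86 and 116 counts in the WT libraries against 24 and 15 in the DKO libraries, a log2 fold change of -1.92 (SE 0.34, edgeR adjusted p = 0.00866), where *Atrnl1* had 0.42 (edgeR adjusted p = 0.547). *Gm14230*, on chromosome 2 from 156833049 to 156839892, starts divergently from *Tgif2*, a homeobox repressor of TGF beta signalling, with 115 bases between the genes. It had 121, 108 and 135 counts in the WT libraries against 31 and 30 in the DKO libraries, a log2 fold change of -1.58 (SE 0.29, edgeR adjusted p = 0.0094), against -0.17 (edgeR adjusted p = 0.870) for *Tgif2*. *Ndrg3*, also within 100 kb, had a log2 fold change of -0.75 and was the only coding gene around these 4 that passed. These 3 decreases missed the threshold without any one of the WT libraries, with edgeR adjusted p values from 0.0318 to 0.0485. Unlike them, *Gm47015* passed with each library left out in turn.

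**Figure D3:**
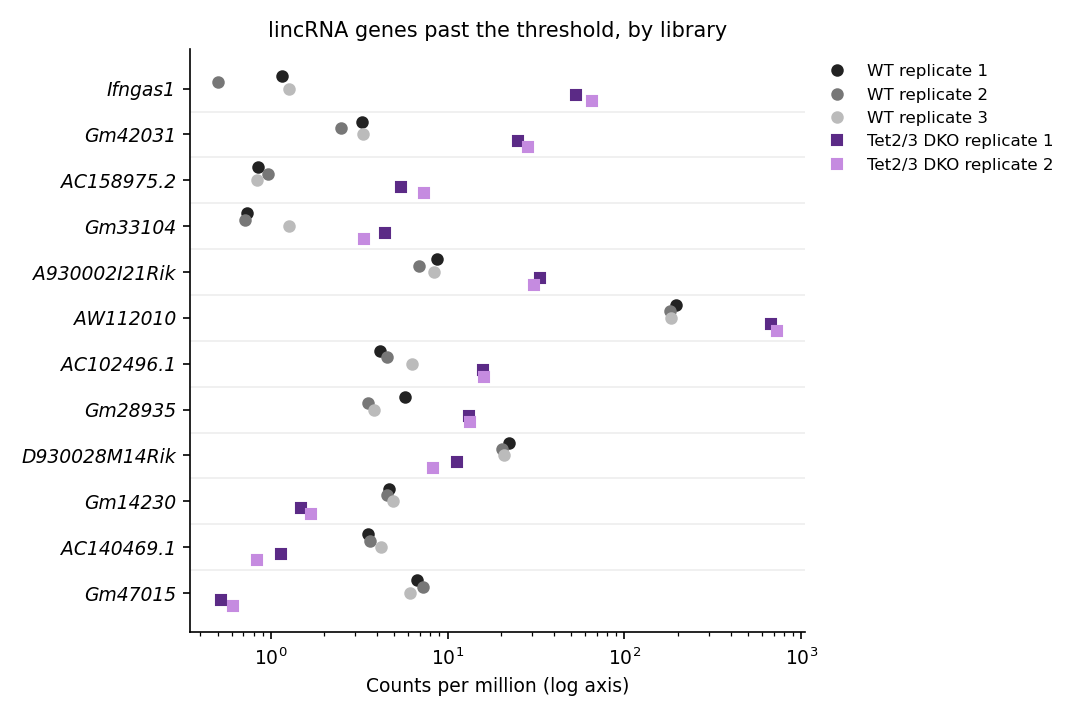
Level of the 12 lincRNA genes past the threshold in each library, in CPM (log axis), circles for WT and squares for *Tet2/3* DKO libraries. For each of the 12 genes the DKO libraries lie on 1 side of the WT libraries, and the pair of DKO libraries of *Ifngas1* (53.2 and 65.6) stands furthest from its WT libraries (0.506 to 1.28).

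The nearest coding gene, by distance between gene bodies, lay a median of 5804 bases from the 130 genes and at most 417103 bases. For 109 of the 130 it was expressed enough to be tested, and 6 of these neighbours passed the threshold (5.50%), beside 3.92% of all genes. Of the 12 lincRNA genes past the threshold, 9 had a tested neighbour, of which 7 had the sign of the lincRNA gene and 1, *Ifngr1*, passed. *Pik3c3* is counted among the 7 at a value of 0.00, and its sign turned under other settings (-0.02 with no filter on low counts). The signs of *Tgif2* (-0.17, but up to 0.04 under the alternatives) and *Ifng* (1.36, but down to -0.35) turned as well. Of the 118 others, 100 had a tested neighbour, of which 57 had the same sign and 5 passed. Over all 109 pairs the log2 fold changes had the same sign in 64 (58.7%), with a Pearson correlation of 0.34 and a Spearman correlation of 0.31. These correlations are descriptions, since the pairs share the same 5 libraries and some share a neighbour (106 different neighbours).

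**Figure D4:**
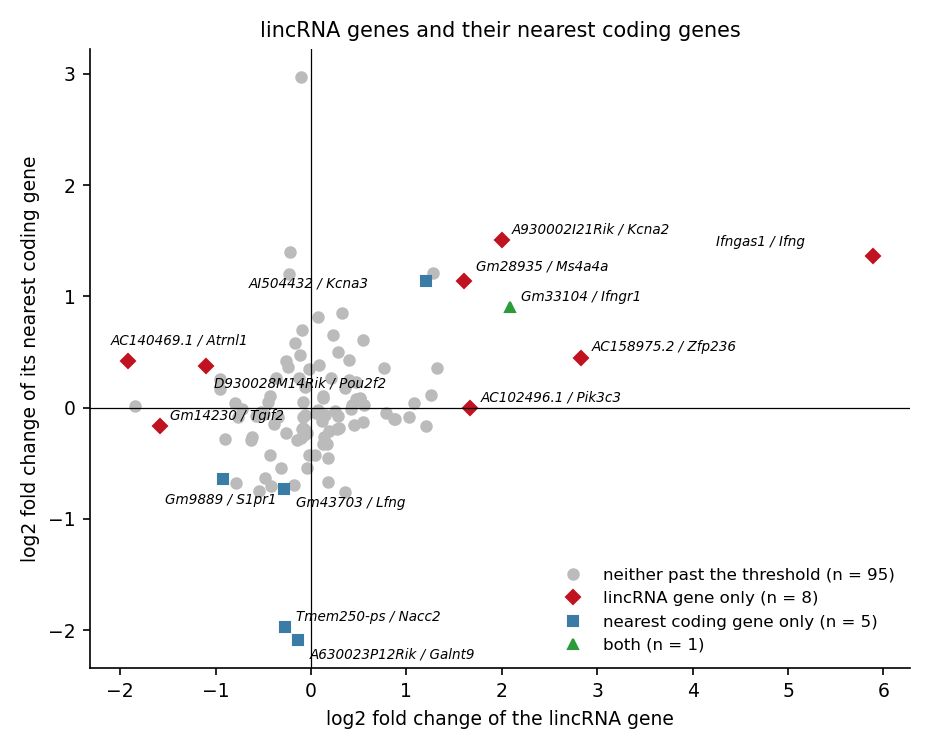
Log2 fold change (*Tet2/3* DKO against WT) of 109 lincRNA genes (horizontal) and of their nearest coding genes (vertical), with marks for which member of the pair had an adjusted p under 0.01. In 8 pairs only the lincRNA gene passed, in 5 only the coding gene, and in 1, *Gm33104* and *Ifngr1*, both did.

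The 5 pairs in which only the coding gene passed had the same sign in each case, and they are named after their values were seen. Besides *Kcna3* with *AI504432*, the closest was *S1pr1*, the receptor that lets mature thymocytes leave the thymus, which starts divergently from *Gm9889* with 78 bases between the genes. *Gm9889* had 231, 190 and 185 counts in the WT libraries against 100 and 62 in the DKO libraries, a log2 fold change of -0.92 (SE 0.25, edgeR adjusted p = 0.0538). *S1pr1* had 21646, 19400 and 19419 counts in the WT libraries against 10995 and 8654 in the DKO libraries, a log2 fold change of -0.64 (SE 0.10, edgeR adjusted p = 0.00395). Both genes of this pair thus had lower counts in DKO than in WT libraries without overlap. In the other 3 pairs the lincRNA gene changed little where its neighbour fell. *Lfng*, a glycosyltransferase that modifies Notch receptors, had a log2 fold change of -0.73 (edgeR adjusted p = 0.00107) beside -0.29 for *Gm43703*. *Nacc2* had -1.97 (edgeR adjusted p = 0.00203) beside -0.27 for *Tmem250-ps*, and *Galnt9* had -2.09 (edgeR adjusted p = 0.000476) beside -0.14 for *A630023P12Rik*.

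**Figure D5:**
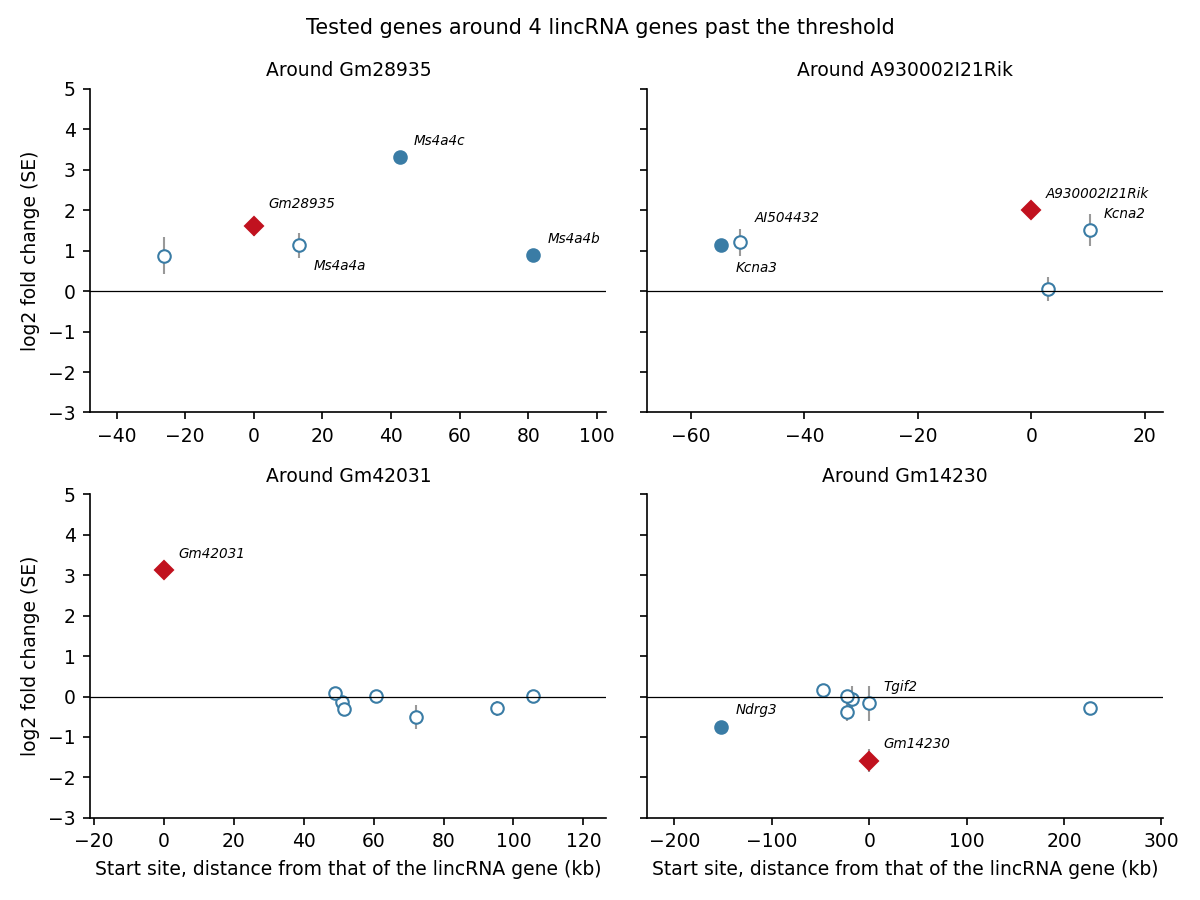
Log2 fold change with its SE of tested genes around 4 lincRNA genes, by the distance of their start sites from that of the lincRNA gene in kb, positive in its direction of transcription. Filled marks passed an adjusted p of 0.01. Around *Gm28935* the genes *Ms4a4c* (3.31) and *Ms4a4b* (0.89) passed with it and around *A930002I21Rik* the gene *Kcna3* (1.14), around *Gm42031* no other gene passed, and around *Gm14230* only *Ndrg3* (-0.75).

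*Malat1* and *Neat1*, lincRNA genes of nuclear bodies, did not pass the threshold. *Malat1* had 8715, 8255 and 9366 counts in the WT libraries against 12806 and 5773 in the DKO libraries, a log2 fold change of 0.45 (SE 0.21, edgeR adjusted p = 0.236). The result rested on which DKO library was used, since the log2 fold change was -0.09 without DKO replicate 1 and 0.82 (edgeR adjusted p = 1.76e-05) without DKO replicate 2. *Neat1*, the scaffold of paraspeckles, had 248, 242 and 199 counts in the WT libraries against 259 and 136 in the DKO libraries, a log2 fold change of 0.17 (SE 0.25, edgeR adjusted p = 0.755). Its sign too depended on the DKO library, at -0.24 without replicate 1 and 0.45 without replicate 2. Of the coding genes of these nuclear bodies, 0 of 10 paraspeckle genes and 0 of 8 speckle genes passed in edgeR or in DESeq2, with 1 of each at an unadjusted edgeR p under 0.05 and median log2 fold changes of -0.09 and -0.11. Of 14 tested genes of the nuclear exosome and its adaptors, which degrade many noncoding transcripts, 0 passed in either tool and 3 had an unadjusted edgeR p under 0.05, with a median of 0.08. At the same threshold 3.92% of all genes passed.

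Among lincRNA genes tied to growth and stress, *Pvt1*, which lies 47612 bases from *Myc*, had a log2 fold change of 0.77 (SE 0.19, edgeR adjusted p = 0.0410). *Lncpint*, a target of p53, had 54, 60 and 55 counts in the WT libraries against 171 and 42 in the DKO libraries. Its log2 fold change of 1.30 (SE 0.46, edgeR adjusted p = 0.124) came from DKO replicate 1, and it was 0.10 without that library and 1.88 (edgeR adjusted p = 0.000141) without DKO replicate 2. *Mirt1* had 1.02 (SE 0.31, edgeR adjusted p = 0.0778) and *1700020I14Rik*, known as Cyrano, 0.25 (SE 0.10, edgeR adjusted p = 0.155). *Epb41l4aos* had 0.05 (SE 0.25, edgeR adjusted p = 0.936), with -0.19 without DKO replicate 1 and 0.22 without DKO replicate 2. In a list of 48 names of well-studied noncoding RNAs these, *Malat1*, *Neat1*, *Ifngas1*, *Mir142hg*, *Snhg6* and *Snhg20* were the 11 found by symbol among the 130 genes. Cyrano and Oip5os1, also listed, are other names of *1700020I14Rik*. RefSeq gives 2 more of the list as synonyms of members: Morrbid, a regulator of myeloid cell survival (*Gm14005*, log2 fold change 0.33, edgeR adjusted p = 0.568), and Norad, which binds Pumilio proteins (*2900097C17Rik*, -0.02, edgeR adjusted p = 0.948).

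Hosts of small RNAs did not pass the threshold. *Mir142hg* had a log2 fold change of -0.18 (SE 0.16, edgeR adjusted p = 0.548), and of the 5 hosts of genes annotated as snoRNA, 1 of which (*2900076A07Rik*) holds *Mir1839*, a gene named as a microRNA, 0 passed in edgeR or DESeq2 and 0 had an unadjusted edgeR p under 0.05, with a median of -0.22. *Snhg6* had -0.22 (SE 0.21, edgeR adjusted p = 0.614) and *Snhg20* had -0.43 (SE 0.21, edgeR adjusted p = 0.253), or -0.72 (edgeR adjusted p = 0.0576) without DKO replicate 1. The signs differed among the hosts, with -0.42 (edgeR adjusted p = 0.355) for *2900076A07Rik* and 0.56 (edgeR adjusted p = 0.295) for *2700038G22Rik*. In 4 of the 5 the libraries of the genotypes did not overlap, 1 higher and 3 lower in DKO cells, against 39.1% of all genes. By position, 2 of 26 genes divergent to a coding gene passed (1 higher and 1 lower), 2 of 11 other genes that overlap a coding gene body (both lower) and 8 of 87 others (7 higher and 1 lower), beside 3.92% of all genes. Differences between these classes were not tested. Of the 19 genes without an intron, 0 passed in edgeR or DESeq2 and 3 had an unadjusted edgeR p under 0.05, and whether this differed from the other genes was not tested.

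Of the 10 most abundant genes, *AW112010* was the only one past the threshold, and *Gm11707* came closest to it, with 1726, 1484 and 1774 counts in the WT libraries against 918 and 540 in the DKO libraries. Its log2 fold change was -0.80 (SE 0.15, edgeR adjusted p = 0.0113), and it passed in DESeq2 (adjusted p = 2.79e-05) and when either DKO library was left out (edgeR adjusted p = 2.33e-05 without replicate 1 and 0.00571 without replicate 2). It also missed the threshold under the replicate block (edgeR adjusted p = 0.0177) and without any one of the WT libraries (edgeR adjusted p from 0.0543 to 0.0629). *Gm2682* had 4546, 3968 and 4169 counts in the WT libraries against 7247 and 3868 in the DKO libraries, 165 ± 12.1 CPM (SD, n = 3) and 281 ± 91.3 CPM (SD, n = 2). Its log2 fold change of 0.77 (SE 0.17, edgeR adjusted p = 0.0220) was 0.39 without DKO replicate 1 and 1.05 (edgeR adjusted p = 5.08e-06) without DKO replicate 2. The remaining 6 apart from *Malat1* had log2 fold changes between -0.18 (*Mir142hg*) and 0.29 (*2610035D17Rik*) and did not pass.

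Between the adjusted p values of 0.01 and 0.05 lay 10 genes, 7 higher and 3 lower in DKO cells. Over all genes 8.68% passed at 0.05 and 3.92% at 0.01. The 10 are named after their values were seen. *Gm47242* lies 4917 bases from *Fam111a*, a protease gene of antiviral defence, and had 103, 82 and 102 counts in the WT libraries against 236 and 129 in the DKO libraries, a log2 fold change of 1.32 (SE 0.25, edgeR adjusted p = 0.0113). *Gm11579*, 3306 bases from the costimulatory receptor gene *Cd28*, had 60, 32 and 78 counts in the WT libraries against 125 and 80 in the DKO libraries, a log2 fold change of 1.26 (SE 0.32, edgeR adjusted p = 0.0444), where *Cd28* had 0.12. The others were *Gm34680* (1.58), *Gm26692* (1.08), *Gm32633* (0.87), *Gm2682* and *Pvt1* among the higher, and *Gm20186* (-0.95), *Gm11707* and *A530021J07Rik* (-0.79) among the lower.

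The median size of the log2 ratio of DKO replicate 1 to replicate 2 was 0.30 over the 130 genes and 0.19 over coding genes with the same minimum, and for WT replicates 1 and 2 it was 0.16 and 0.12. The coding genes were not matched to the lincRNA genes in level, and the difference was not tested. DKO replicate 1 was higher than replicate 2 in 75 of the 130 (57.7%) and in 47.7% of the coding genes. The higher share of reads outside annotated features in that library moved with these values, and its part in them was not tested.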

How the data were processed

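The 5 libraries, each of CD4 SP thymocytes of another mouse, were prepared with SMART-seq v4 and Nextera XT, 3 from WT and 2 from *Tet2/3* DKO mice. Per the labels and the methods of the study, the authors trimmed the reads with fastp 0.21.0 and aligned them to mm10 with STAR 2.7.5a, using gene models of GRCm38.100, and bcl2fastq 2.20.0 is named too. The authors deposited raw counts of uniquely mapped reads per gene for each library, neither normalized nor pooled. The counts without regard to strand were used, and the stranded counts served only for the strand shares. The deposited T cell receptor clonotype tables were not used here. No value column lacked a sample (0).

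GENCODE M21 held 55141 of the 55487 gene identifiers. It is not the annotation the authors counted with and gave biotypes, symbols and coordinates. The 130 lincRNA genes and the gene lists were chosen with earlier results of these data known.

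All genes were fitted together with edgeR 4.0.16 in R 4.3.3 (quasi-likelihood test with the newer dispersion moderation, TMM scaling, the filterByExpr filter by genotype with a minimum count of 10, Benjamini-Hochberg adjustment over the 13525 genes tested). The threshold was an adjusted p of 0.01, as in the study, which used DESeq2. DESeq2 1.42.0 was run as an alternative, beside other scalings, filters, moderations and thresholds, a replicate block and leaving out each library. SE is that of the log2 fold change, from the F statistic. CPM are scaled by TMM. P-values measure the spread between these mice, and no molecular identifiers were used.

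Named are the 10 genes of highest level per kilobase in WT, and up to 10 genes passing in each direction. The latter had an average log2 CPM of 0 or more and genotypes that did not overlap. Their nearest coding genes by distance between gene bodies are named too. So are lincRNA genes of a list of 48 names of well-studied noncoding RNAs, and the genes at the count minimum. Genes named outside this rule are said to be, or lie within 100 kb of one of them. Promoter sequences are from RefSeq (GRCm38.p6).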

Additional observations from a re-analysis of the deposited data

How the results depend on the processing

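In the edgeR fit, 8 lincRNA genes were higher and 4 lower in DKO cells, and 1 had a nearest coding gene that passed the same way. DESeq2 gave 12 higher and 7 lower genes, and an adjusted p of 0.05 gave 15 higher and 7 lower with 2 such neighbours. Leaving out each library in turn gave 4 to 15 higher genes, 1 to 6 lower genes and 0 to 2 such neighbours. Without WT replicate 1, 2 or 3 the higher genes were 6, 4 and 5 and the lower genes 1 each, while over all genes the calls fell from 530 to 152, 110 and 127. Without DKO replicate 1 or 2 the higher genes were 12 and 15 and the lower ones 6 each, beside 1312 and 1149 calls over all genes, where DESeq2 made 1030 and the threshold of 0.05 made 1174. The 12 genes were all still called without either DKO library and under the other scaling, filter, moderations and tool. *Ifngas1*, *AW112010*, *Gm42031*, *A930002I21Rik* and *Gm47015* passed in all 12 alternatives. Over the log2 fold changes of the named genes, 442 values under an alternative kept their side of the threshold, 15 came to pass, 23 no longer passed, and no called value changed sign.

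With the replicate number as a block, 6 genes were higher and 1 lower, with 0 neighbours passing the same way, and 359 genes were called in all. *AC140469.1*, *D930028M14Rik*, *Gm14230*, *Gm28935* and *Gm33104* missed the threshold under the block. The deviations of same-numbered libraries from their group means correlated at 0.015 and 0.0045, and the labels give the numbers no other meaning, so the numbers were not treated as pairs.

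Taking the nearest coding gene by start site, or among the tested genes only (an alternative chosen after seeing the data), left 1 such neighbour. With 3 against 2 mice, low lincRNA genes are tested with little precision. WT replicate 1 and DKO replicate 1 also go against their labels on sex. Genes under 200 counts were not described.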
